A study of Mus musculus with 4 samples.

Results

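The gasdermins are a family of pore-forming proteins, and 7 of their mouse genes were read here: Gsdma, Gsdmc, Gsdmc2, Gsdmc3, Gsdmc4, Gsdmd and Gsdme. They were taken by name from the 30705 genes that the platform annotation named with a single symbol, Gsdme being listed there under its older symbol Dfna5. Each of the 7 genes had 1 array feature, so no choice among features was made. The family was chosen by log2 differences already seen between these same 4 arrays, so its values are given as a description, with no test, and counts of called genes support nothing by themselves.

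A gasdermin is made as an inactive protein in which a carboxy-terminal domain holds down an amino-terminal pore-forming domain. A protease cuts the linker between the domains, and the freed fragments assemble into pores in the plasma membrane, through which interleukins leave and by which the cell can die by pyroptosis. In the intestine, gasdermin D is best known downstream of inflammasomes in epithelium and phagocytes, and the mouse Gsdmc genes are known as epithelial genes that respond to the type 2 cytokines IL-4 and IL-13.

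Total RNA of cells from the small intestine of 8 week-old mice was hybridised to 4 whole-transcript arrays, 1 per group. All groups came from animals that carry GFP and CreERT2 at Lgr5, the R-spondin receptor gene of crypt base stem cells, so cells of all 4 arrays share this reporter. Wild-type mice gave the non-stem array (GFP-negative cells) and the wild-type stem array (GFP-positive cells), and GFP-positive cells of LncGata6 mutant and of Ehf-/- mice gave the other arrays. LncGata6 is a long noncoding RNA made beside the gene of the factor Gata6, and Ehf belongs to the ETS family of DNA-binding factors and is known from epithelia. The labels give neither the kind of LncGata6 mutation nor how many animals were pooled, and their collection protocol also names a sort of ILCreg (innate lymphoid) cells. With 1 array per group no test, standard error or p-value could be had, no array could be left out, and every difference below is between 2 arrays.

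Values are the authors' log2 signals. A gene was called higher or lower for a difference of 1 or more in log2 (2-fold), provided its brighter value reached the 75th percentile of that array. The control limit of an array is the 95th percentile of its negative control features, 5.16 for non-stem, 5.62 for wild-type stem, 5.31 for LncGata6 mutant and 5.19 for Ehf knockout. Folds are brighter over dimmer, and where the dimmer value lay under its control limit that limit replaced it, which makes the fold a lower bound ("at least"). Where 4 values stand in a row, the first is that of non-stem cells, followed by wild-type stem cells and the LncGata6 mutant, with the Ehf knockout last; this is called array order. Signals of different genes come from different probes, so levels are compared between arrays and not between genes.

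Some arrays went against their labels. Ehf read 3.75, 6.99, 5.09 and 3.03 in array order. Only its wild-type stem value reached the control limit, so its low value on the Ehf knockout array does not by itself check that label. The LncGata6 feature, listed as Gata6os, lay under the control limits on all 4 arrays and so checks no label. Lgr5 was above the control limit on the wild-type stem array alone, at 9.41, beside 3.03 on the LncGata6 mutant array and 2.79 on the Ehf knockout array. Of 13 measured general epithelial genes, 10, 13, 12 and 0 reached the control limit. All 10 hepatocyte genes and all 9 kidney tubule genes were above it on the non-stem array, and all 10 neutrophil genes on the Ehf knockout array. Arrays are therefore named by their labels, and in such bulk RNA fewer cells of a type and less RNA per cell cannot be told apart.

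Of the 7 gasdermins, the numbers at or above the control limit were 1, 3, 4 and 1 in array order. Gsdmc2, Gsdmc3, Gsdmc4 and Gsdmd reached it on at least 1 array, whereas Gsdma, Gsdmc and Gsdme did not on any.

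**Figure D1:**
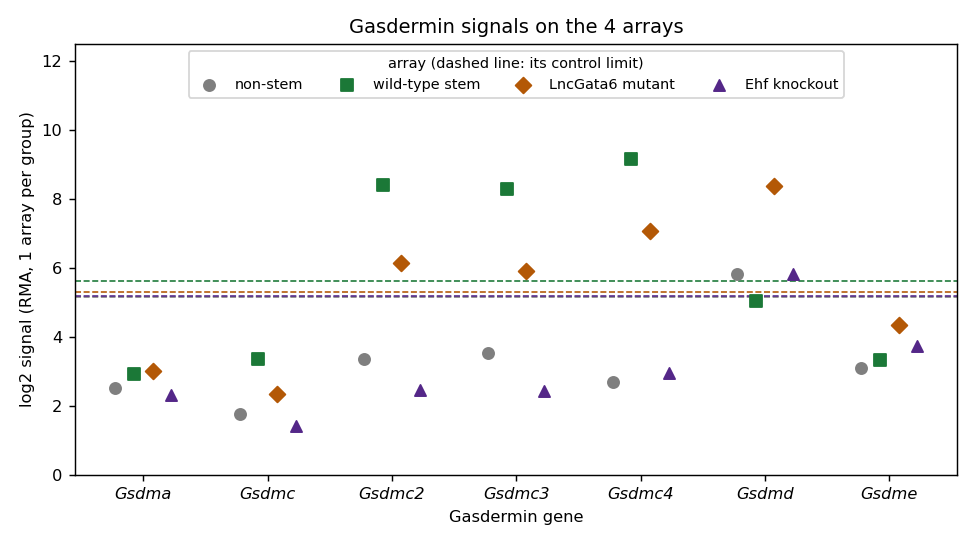
Log2 signal of each gasdermin gene (horizontal axis) on the 4 arrays, 1 point per array, with each array's control limit as a dashed line. Gsdmc2, Gsdmc3 and Gsdmc4 stand highest on the wild-type stem array (8.28 to 9.16) and Gsdmd on the LncGata6 mutant array (8.38), while Gsdma, Gsdmc and Gsdme lie under every control limit.

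Gsdmc2, Gsdmc3 and Gsdmc4 had the same order over the arrays: wild-type stem first, LncGata6 mutant next, and both other arrays under the control limit. Gsdmc2 read 3.37, 8.41, 6.14 and 2.47 (log2) in array order. Gsdmc3 read 3.52, 8.28, 5.92 and 2.42. Gsdmc4 read 2.68, 9.16, 7.07 and 2.94. The LncGata6 mutant and wild-type stem arrays were thus above the control limit for all 3 genes, and the other arrays were below it for all 3. There is no replicate spread against which to set neighbours in this order.

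Of these 3 genes the promoter table of RefSeq (build GRCm38.p6) held Gsdmc3 only. Its 250 bases before the transcript start, at chr15:63878559-63878808 on the minus strand, are shown because the series concerns mutants of an ETS factor and of an RNA made beside a GATA factor gene, and the capitals mark every match to the motifs searched.

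Gsdmc3 promoter: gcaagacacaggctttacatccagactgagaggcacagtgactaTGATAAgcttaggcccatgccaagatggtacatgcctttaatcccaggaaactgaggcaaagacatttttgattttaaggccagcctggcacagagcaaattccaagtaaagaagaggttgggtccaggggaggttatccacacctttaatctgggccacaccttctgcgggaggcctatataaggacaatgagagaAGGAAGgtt

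Both strands were searched for letters that GATA factors bind, AGATAA in one form, and in the other form TGATAA. The search also took AGGAAG as the only form of the ETS motif, the HNF4 motif CAAAGTCCA and the CDX motif CATAAA. Of further motifs, the TATA box was read as TATAAA, and the STAT6 motif was the palindrome with a 4-base spacer. The matches did not overlap. TGATAA was found once, at positions -206 to -201 from the start, and AGGAAG once, at -9 to -4. Over the same 250-base window of 32851 promoters, 7.94% held TGATAA and 29.5% held AGGAAG, so the ETS letters in particular are common. These are matches of letters, and no binding was measured.

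When wild-type stem cells were set against non-stem cells, Gsdmc2, Gsdmc3 and Gsdmc4 were higher and no other gasdermin was called. The differences were 5.04 (log2), 4.76 and 6.47, or at least 9.54-fold, 8.70-fold and 16.0-fold. In all, 3 of 7 gasdermins were called higher and 0 lower, where 3.83% of all genes were called higher, 7.07% lower and 10.9% either way, and the median of the 7 differences, 1.61 beside -0.11 over all genes, was that of Gsdmc, whose values were under the control limits. General epithelial genes moved with them, with 11 of 13 higher and a median of 2.02. All 8 measured Paneth cell genes were higher too (median 6.14, from 4.21 to 6.50), as were 9 of 10 goblet cell genes (2.37). The stem cell list gave 5 of 9 calls upward and 0 downward, at a median of 1.73, with Lgr5 at 6.37. The enteroendocrine list gave 5 of 8 upward (2.53). Enterocyte markers leaned the opposite way, with 8 of 14 lower, 1 higher and a median of -1.57. The part of these lists, and of the liver and kidney RNA on the non-stem array, in the gasdermin differences was not tested.

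On the LncGata6 mutant array the same 3 genes were lower than on the wild-type stem array, by similar amounts, and stayed above the control limit. The difference was -2.27 (log2) for Gsdmc2, -2.36 for Gsdmc3 and -2.09 for Gsdmc4, or 4.81-fold, 5.14-fold and 4.25-fold lower. The 3 differences lay within 0.28 of each other. Gsdmd went the other way, with 8.38 against 5.03. Thus 3 gasdermins were lower, where 3.01% of all genes were, and 1 was higher, where 2.80% were (5.81% either way). General epithelial genes had a median difference of -0.36 here, with 4 of 13 lower and 2 higher (from -1.61 to 2.75). Paneth genes were lower in 8 of 8 cases (median -1.81, from -3.20 to -1.34), while enterocyte genes were higher in 14 of 14 (4.02). Stem cell genes were lower in 5 of 9 cases, with a median of -1.13, and stroma and endothelium genes in 6 of 8, with a median of -1.80. The part of these cell types in the differences was not tested.

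On the Ehf knockout array Gsdmc2, Gsdmc3 and Gsdmc4 were at the level of the negative controls. Against the wild-type stem array they differed by -5.94, -5.86 and -6.22 (log2), or were at least 9.33-fold, 8.51-fold and 15.6-fold lower. The count was 3 of 7 lower and 0 higher, where 5.28% of all genes were lower, 2.59% higher and 7.87% either way, and the median of the 7 differences, -1.95 beside -0.20 over all genes, was again that of Gsdmc between values under the limits. All 13 general epithelial genes were lower as well, with a median difference of -4.86 (from -7.41 to -2.15), and none reached the control limit. A loss of Gsdmc transcripts and a loss of epithelial RNA from that array cannot be told apart. Because 1 wild-type stem array served both mutants, the paired differences are not independent.

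**Figure D2:**
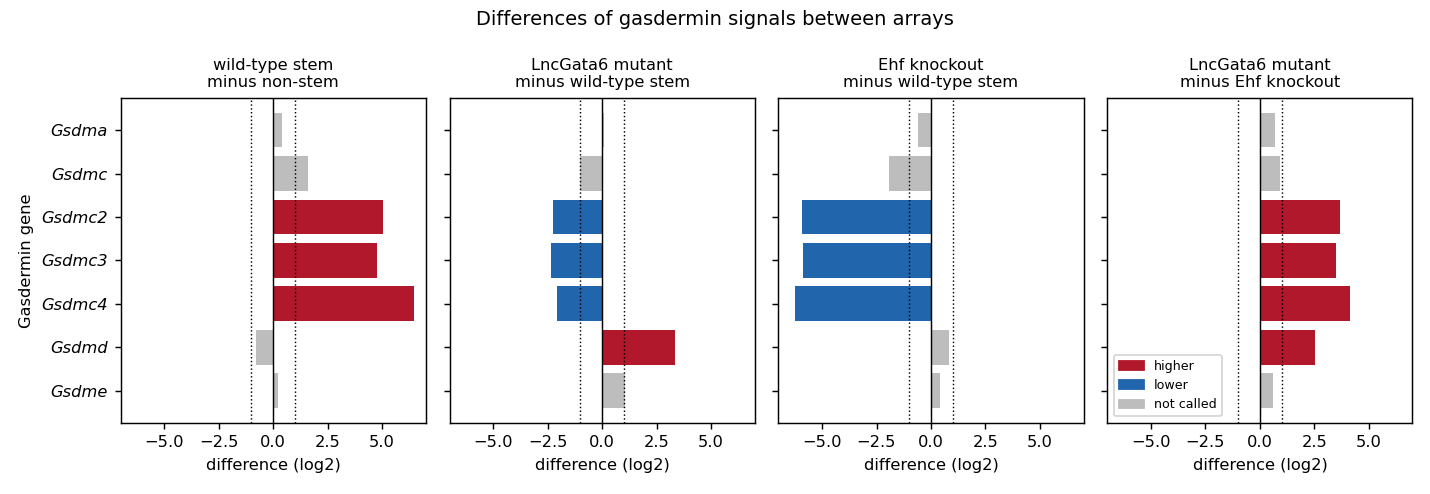
Difference of log2 signal (horizontal axis) for each gasdermin in 4 comparisons between 2 arrays each, coloured by call, with dotted lines at a difference of 1 either way. Gsdmc2, Gsdmc3 and Gsdmc4 are called in every panel, and Gsdmd in the LncGata6 mutant comparisons only (3.35 and 2.54).

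Set directly against each other, the LncGata6 mutant array exceeded the Ehf knockout array in Gsdmc2 (3.68, log2), Gsdmc3 (3.50), Gsdmc4 (4.13) and Gsdmd (2.54). Those 4 of 7 were called higher and 0 lower, where 6.16% of all genes were higher, 3.47% lower and 9.63% either way. Because the Gsdmc values of the knockout array were under the control limit, the folds are at least 1.94, 1.65 and 3.68, and Gsdmd, above the limit on both arrays, was 5.82-fold higher. General epithelial genes were higher in 12 of 13 cases in this comparison, with a median of 3.59.

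The non-stem array served as a second reference. The LncGata6 mutant array was above it in the same 4 genes, where 3.66% of all genes were called higher, 6.87% lower and 10.5% either way, by 2.77 for Gsdmc2, 2.39 for Gsdmc3, 4.39 for Gsdmc4 and 2.55 for Gsdmd (log2). With the non-stem values of the Gsdmc genes under the control limit, the folds are at least 1.98, 1.69 and 3.76, and Gsdmd was 5.84-fold higher. Between the Ehf knockout and non-stem arrays 0 of 7 gasdermins were called, where 3.01% of all genes were higher, 9.83% lower and 12.8% either way. Gsdmd read 5.84 on both of those arrays.

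The Gsdmc genes lie side by side on chromosome 15, in a block whose reference order is Gsdmc, 1700065I16Rik, Gsdmc2, Gsdmcl1, Gsdmc3, Gsdmcl2, Gsdmc4 and Gsdmcl-ps. The 8 genes of the block with a feature are 4 coding genes that alternate with 4 transcribed pseudogenes. The 3 bright genes are coding, and the pseudogenes read from 2.54 to 4.18 (log2) over all arrays, with 0 of 4 above a control limit. Gsdmc, at one end, read 1.75, 3.36, 2.35 and 1.41 in array order, all under the limits. At this brightness its values cannot be ranked between arrays. Beyond that end, the pseudogene Gm5473 read 7.82 to 8.99 on the 4 arrays. Beyond the other end, Cyrib, which encodes a Rac1-binding regulator of the cytoskeleton, read 5.03, 5.82, 6.08 and 6.89 in array order. Asap1, an Arf GTPase-activating protein, read 5.27, 4.41, 5.99 and 6.27. Both were highest on the Ehf knockout array, with the LncGata6 mutant array next. The non-stem value of Cyrib and the wild-type stem value of Asap1 were under the control limits. The array annotation names no probe sequences here, so how far probes of the near-copies Gsdmc2, Gsdmc3 and Gsdmc4 read each other's RNA was not tested. The log2 profiles of Gsdmc2 and Gsdmc3 over the 4 arrays, each centred on its own mean, were 0.14 apart (root mean square), and that of Gsdmc4 was 0.63 from Gsdmc2 and 0.77 from Gsdmc3.

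**Figure D3:**
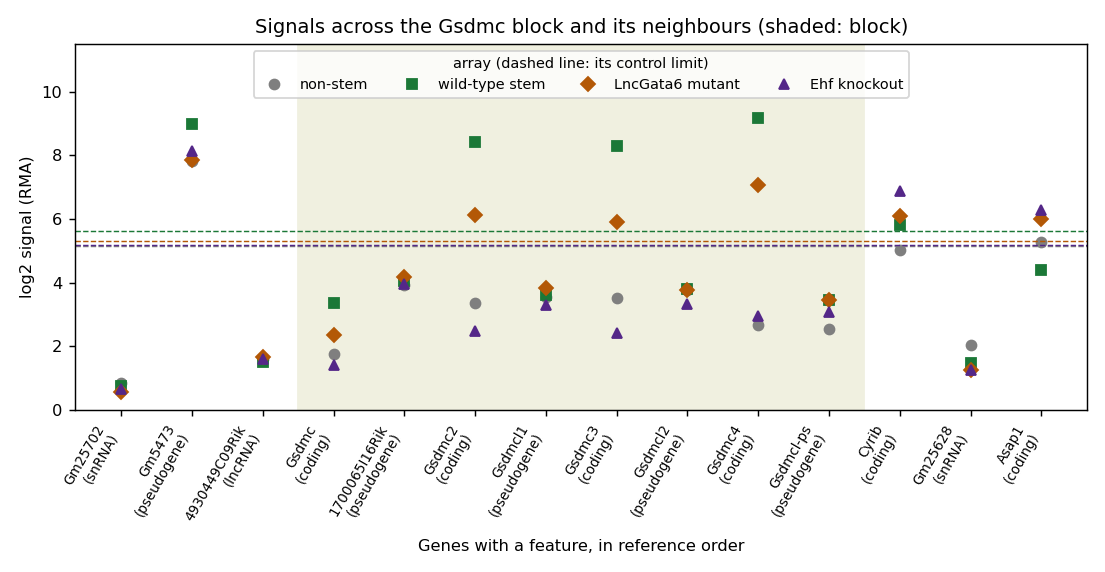
Log2 signal on the 4 arrays of the genes of the Gsdmc block (shaded) and 3 genes to either side, in reference order, with control limits as dashed lines. Only Gsdmc2, Gsdmc3 and Gsdmc4 of the block rise above the limits, on the LncGata6 mutant and wild-type stem arrays, and the 4 pseudogenes stay between 2.54 and 4.18.

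Gsdmd, the gasdermin that inflammatory caspases cut, had another order. It read 5.84, 5.03, 8.38 and 5.84 (log2) in array order. The LncGata6 mutant array stood apart, and the wild-type stem value was the lowest and the only one under its control limit. Against wild-type stem cells the LncGata6 mutant array was higher by 3.35, or at least 6.77-fold. Enterocyte genes (14 of 14 higher, median 4.02) and intraepithelial and T lymphocyte genes (10 of 10 higher, median 3.91) were up on the same array, and their part in the Gsdmd difference was not tested. Of neutrophil and macrophage genes, 0 of 10 and 1 of 9 reached the control limit there, the 1 being Lyz2, at 9.11 against 10.54 in wild-type stem cells. On the Ehf knockout array Gsdmd exceeded the wild-type stem value, itself under its limit, by 0.81 and was not called. All 10 neutrophil genes (median 6.96) and all 9 macrophage genes (2.57) were higher there, and their part in the Gsdmd values was not tested. That call depended on the scaling, since the difference was 1.18 after quantile normalization and 1.17 after cyclic loess, and called under both. The difference between the wild-type stem and non-stem arrays was -0.80 and was not called.

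Gsdma, a gasdermin of skin and upper gut epithelium, read 2.51, 2.92, 3.01 and 2.32 in array order. Gsdme, which can turn apoptosis into lysis, read 3.10, 3.32, 4.35 and 3.75. All 8 of these values lay under the control limits. The Gsdme difference of 1.03 between the LncGata6 mutant and wild-type stem arrays was not called, since 4.35 did not reach that array's 75th percentile of 4.93. The 6 further features of the family (Gsdma2, Gsdma3, Pjvk and 3 pseudogenes of the Gsdmc block) ranged from 1.29 to 3.84, with 0 above a control limit.

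For each of Gsdmc2, Gsdmc3, Gsdmc4 and Gsdmd the 5 most similar of 9520 genes detected on at least 1 array were found by the root mean square distance between mean-centred log2 profiles over the 4 arrays. With 4 points per gene this is a description only, and for Gsdmc2, Gsdmc3 and Gsdmc4 the non-stem and Ehf knockout points were under the control limits, so distances and ranks rest partly on background readings. Nearest to Gsdmc2 were 9130208D14Rik (0.24), Gm17783 (0.26), Defa-ps17 (0.28), the matrix protease Mmp7 (0.30) and Pnliprp2 (0.35), a pancreatic lipase-related protein. Gsdmc3 had 9130208D14Rik (0.36), Defa-ps17 (0.38), Gm17783 (0.40), the colipase gene Clps (0.41) and Pnliprp2 (0.43). Nearest to Gsdmc4 were Ang4 (0.26), an antimicrobial ribonuclease, Mmp7 (0.34), Gm17783 (0.43), 9130208D14Rik (0.45) and Defa-ps10 (0.49). Mmp7, which Paneth cells use to activate defensins, read 2.73, 8.41, 6.25 and 2.50 in array order, and Ang4 read 3.51, 10.01, 8.16 and 3.31. Both are Paneth cell markers. The genes nearest to Gsdmd were Apol7b (0.14), Ddx60 (0.15), Bambi-ps1 (0.19), Trim30d (0.21) and Ifit1bl1 (0.23). Ddx60, an interferon-induced helicase, read 4.01, 3.09, 6.37 and 4.23. All 5 of these neighbours were above the control limit on the LncGata6 mutant array alone. Their distances to Gsdmd thus rest largely on background readings as well. Within a distance of 0.5 there were 12 genes for Gsdmc2, 12 for Gsdmc3, 5 for Gsdmc4 and 48 for Gsdmd.

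**Figure D4:**
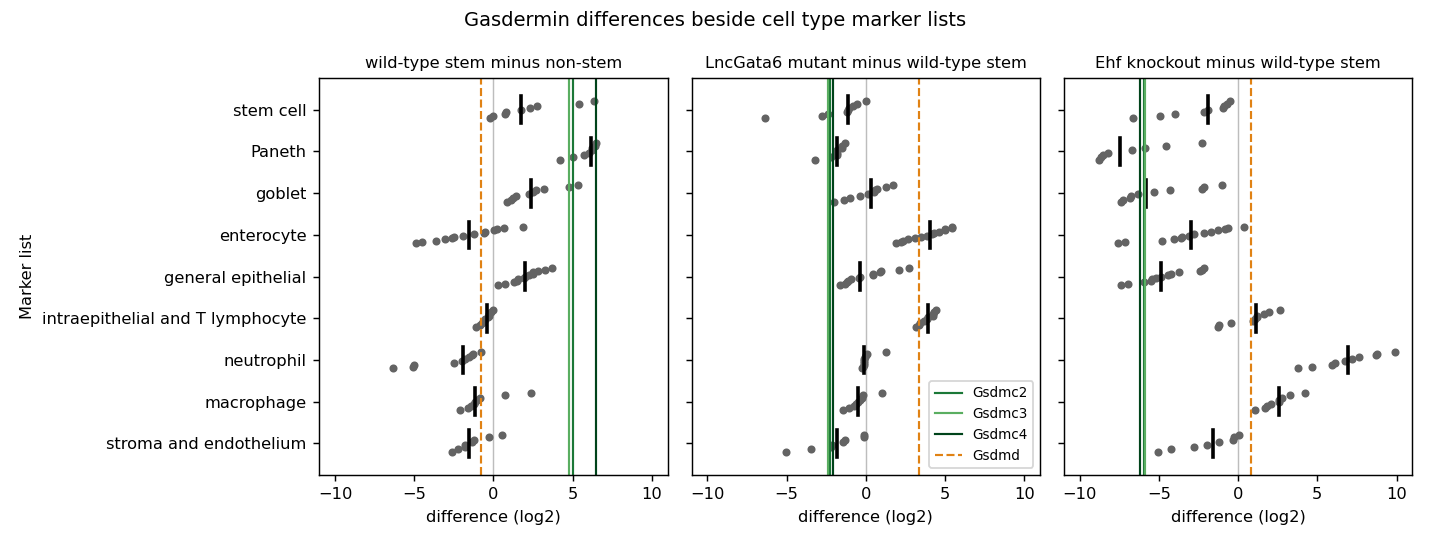
Difference of log2 signal (horizontal axis) of each marker gene (points) in 9 cell type lists, with the list's median as a black bar, and the differences of Gsdmc2, Gsdmc3, Gsdmc4 and Gsdmd as vertical lines, in 3 comparisons. In the LncGata6 mutant comparison the Gsdmc lines (-2.36 to -2.09) lie among the Paneth (median -1.81), stroma and endothelium (-1.80) and stem cell (-1.13) genes, and the Gsdmd line (3.35) among the enterocyte and lymphocyte genes, with medians of 4.02 and 3.91.

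Upstream of the gasdermins, the NAIP and NLRC4 proteins sense bacterial flagellin and secretion systems, and their genes read above the control limits on both the wild-type stem and the LncGata6 mutant array. Naip6 read 5.50, 8.02, 8.55 and 6.25 (log2) in array order, and Naip5 read 5.01, 7.01, 7.85 and 5.89. Nlrc4, the partner of the NAIPs, read 3.26, 6.19, 6.20 and 4.16. All 3 were highest on the LncGata6 mutant and wild-type stem arrays. Of 11 measured sensors and adaptors, the wild-type stem array had 5 higher and 0 lower than the non-stem array (median 1.5), including Naip6 (5.73-fold) and Naip5 (at least 3.61-fold). Of all genes 3.83% were higher and 7.07% lower in that comparison. On the LncGata6 mutant array 0 were higher and 1 lower than on the wild-type stem array (median 0.14). Of all genes 2.80% were higher and 3.01% lower there, so the counts are near those shares. The 1 lower gene was Pycard, the adaptor ASC that joins sensors to caspase-1, at 5.35 against 6.81, or 2.74-fold lower. On the Ehf knockout array 0 were higher and 5 lower (median -0.73), among them Nlrp6 (at least 1.87-fold), Naip6 (3.42-fold) and Pycard (at least 3.07-fold). Of all genes 2.59% were higher and 5.28% lower there. All 13 general epithelial genes were lower in the same comparison (median -4.86). Between the wild-type stem and non-stem arrays 11 of the 13 were higher (median 2.02). The part of epithelial RNA in the sensor and adaptor differences was not tested. Nlrp3, Nlrp1a, Nlrp1b, Aim2 and the pyrin gene Mefv lay under the control limits on all 4 arrays.

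The proteases listed as cutting gasdermins had different orders over the arrays. Whether they cut any of the 7 gasdermins in these cells was not measured. Casp1, which cuts gasdermin D after inflammasome assembly, read 5.05, 8.66, 8.43 and 6.91 in array order. It was at least 11.3-fold higher on the wild-type stem array than on the non-stem array and its Ehf knockout value was 3.36-fold below the wild-type stem value. Casp4, the mouse caspase-11 gene, read 3.78, 6.18, 6.55 and 5.51, and Casp8 read 6.72, 7.95, 8.34 and 6.96. Between the LncGata6 mutant and wild-type stem arrays none of these 3 caspases was called, although Gsdmd was. The lymphocyte granzymes Gzma and Gzmb were 20.1-fold and 19.1-fold higher there. This made 2 of 7 measured proteases higher, with none lower, where 2.80% of all genes were higher and 3.01% lower. The neutrophil proteases Elane, at 6.87 on the Ehf knockout array, and Ctsg, at 6.36, were at least 2.37-fold and 1.67-fold above the wild-type stem array. Casp1, Gzma and Gzmb were lower, so 2 proteases were higher and 3 lower, where 2.59% of all genes were higher and 5.28% lower. All 13 general epithelial genes were lower and all 10 neutrophil genes higher in the same comparison, and their part was not tested.

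Downstream, of the measured cytokines released through gasdermin pores (Il1a, Il1b and Il18), only Il1b reached a control limit, so their orders cannot be compared. Il1b read 4.33, 6.51, 6.10 and 6.79 in array order and was called only against the non-stem array, above which the other 3 arrays lay by at least 2.55-fold, 1.92-fold and 3.11-fold. Il18, known from gut epithelium, read 3.75, 3.87, 4.04 and 4.34, under every limit. Il1a was called higher on the LncGata6 mutant array (5.0) than on each of the others (3.11 to 3.58), with all values under the control limits and so no fold. Ninj1, whose product ruptures the membrane late in lytic death, read 6.10, 4.84, 4.60 and 5.06 and was above the limit on the non-stem array alone. Of 6 genes that repair gasdermin-damaged membrane through ESCRT, 1 was higher on the LncGata6 mutant than on the wild-type stem array, Pdcd6 (ALG-2, its calcium sensor), by 2.32-fold. Of all genes 2.80% were higher there. Between the LncGata6 mutant and Ehf knockout arrays 4 of the 6 were higher (median 1.10), where 6.16% of all genes were. Against the non-stem array 2 were higher on the LncGata6 mutant array, where 3.66% of all genes were. None of the 6 was called in the other 3 comparisons, where 7.87% to 12.8% of all genes were called, a count near those shares.

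**Figure D5:**
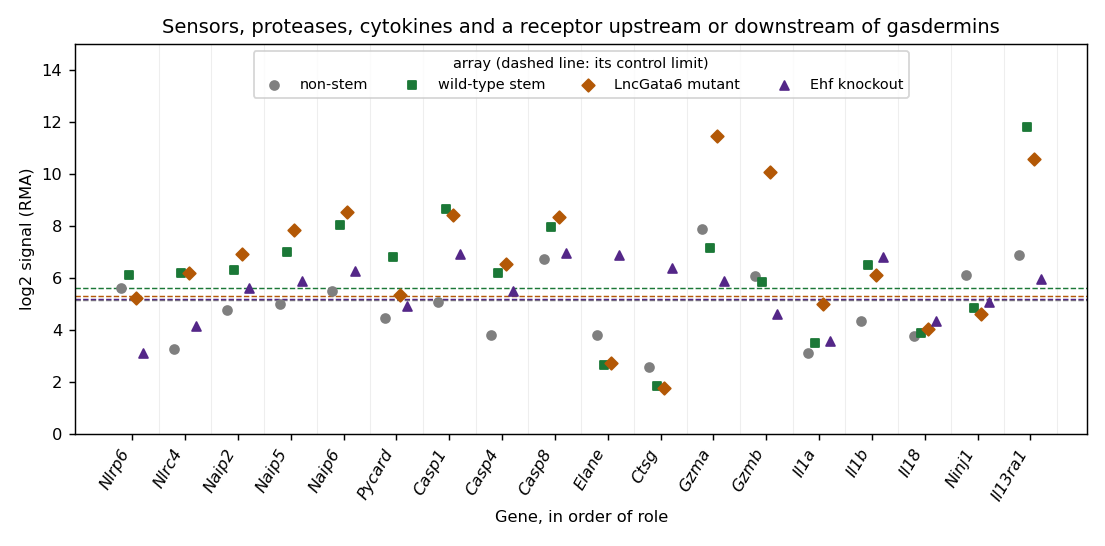
Log2 signal on the 4 arrays (1 point each) of 18 genes that act upstream or downstream of gasdermins, ordered as sensors and adaptor, proteases, cytokines, Ninj1 and the receptor gene Il13ra1, with control limits as dashed lines. Casp1 is high on the LncGata6 mutant and wild-type stem arrays (8.43 and 8.66), Elane and Ctsg exceed the limit on the Ehf knockout array alone, and Gzma and Gzmb peak on the LncGata6 mutant array (11.47 and 10.09).

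Among 13 measured genes of the type 2 cytokine response, the receptor subunit gene Il13ra1 had the same order over the stem-labelled arrays as Gsdmc2 to Gsdmc4. The order is not particular to it, since all 8 measured Paneth cell genes had it. Retnlb, Il13, Pou2f3 and Dclk1 of the type 2 list had it too, with all values under the control limits. Il13ra1 read 6.86, 11.81, 10.59 and 5.97 in array order. That made it 30.9-fold higher on the wild-type stem than on the non-stem array, and lower than on the wild-type stem array by 2.33-fold on the LncGata6 mutant array and 57.2-fold on the Ehf knockout array. Its partner Il4ra (6.12, 6.25, 6.59 and 6.69) and the signal transducer Stat6 (6.11, 5.87, 6.31 and 5.89) were called in no comparison. The goblet cell gene Clca1 was lower on the Ehf knockout array, at least 27.3-fold, and was not called between the LncGata6 mutant and wild-type stem arrays. All 13 general epithelial genes were lower on the Ehf knockout than on the wild-type stem array (median -4.86). Their part in the Il13ra1 and Clca1 differences was not tested. The cytokines Il4, Il5, Il13, Il25 and Il33 stayed under the control limits on all 4 arrays. In total 2 of the 13 were higher on the wild-type stem than on the non-stem array (median 0.33), 1 was lower on the LncGata6 mutant array (-0.16) and 2 on the Ehf knockout array (-0.25). The matching shares of all genes were 3.83% higher, 3.01% lower and 5.28% lower.

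Of 8 measured genes that write or read the N6-methyladenosine mark, 0 were called between the LncGata6 mutant and wild-type stem arrays, where 5.81% of all genes were, so the count is near that share. The median difference was -0.22. Mettl14, a subunit of the methyltransferase, read 3.91, 4.52, 4.01 and 3.63, under every limit. Ythdc1, a nuclear reader of the mark, read 5.79, 7.33, 6.47 and 6.22, and was 2.91-fold higher on the wild-type stem than on the non-stem array and 2.16-fold lower on the Ehf knockout than on the wild-type stem array. The part of the lower general epithelial signals of the Ehf knockout array in this was not tested.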

How the data were processed

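Sorted cells of the mouse small intestine were measured on 4 Clariom D arrays, 1 per group. The deposited table holds the authors' log2 values for 72688 features. Per the submitters' processing notes, the software was Affymetrix Power Tools with RMA; which versions, and which genome build, is not given in the sources used here. Background subtraction and probe summary are part of RMA, which compresses differences of dim features. The log2 scale was taken from the values (-0.183 to 13.1).

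Symbols were updated through a RefSeq table of GRCm38.p6, which changed 1152. This left 31261 features with 1 symbol, 1489 with several (left out) and 39938 unnamed here. For 441 genes with several features the brightest was used. Control limits rest on 5222 negative control features. Counting was tested on simulated data. Python 3.11.15, pandas 2.3.3 and, for quantile normalization and cyclic loess, limma 3.58.1 in R 4.3.3 were used.

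The gasdermins and gene lists were chosen with earlier results of these data known. Genes are named as gasdermins, as members of the pathway lists (by counts, with values for called ones and defining ones) or as the 5 nearest profiles. Values of genes of the lists that were not called, of the neighbours of the Gsdmc block and of the targeted genes were chosen after they were seen. The number of arrays limits the precision.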

Additional observations from a re-analysis of the deposited data

How the results depend on the processing

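Median centring, quantile normalization, cyclic loess, the median of a gene's features, another brightness limit (none, or the control limit) and a difference of at least 1.5 were tried for the 6 comparisons. Of 42 counts of called gasdermins, 41 stayed within 1.5 times the reported count. The exception was Ehf knockout against non-stem, where 1 gasdermin (Gsdmc3, lower, both values under the control limits) was called with no brightness limit and 0 otherwise. Without that limit Gsdmc and Gsdme, under every control limit, were also called between the LncGata6 mutant and wild-type stem arrays (6 against 4). Gsdmc was added in wild-type stem against non-stem and in Ehf knockout against wild-type stem, and Gsdme in LncGata6 mutant against non-stem. Each gasdermin has 1 feature, so the median of features could not change its differences, and that setting tests nothing for them. Of 168 differences under other scalings or features, those unchanged ones included, 166 kept their call. The others were Gsdmd between the Ehf knockout and wild-type stem arrays, at 1.18 with quantile normalization and 1.17 with cyclic loess against 0.81. The cause was not tested. Median differences of all genes over the 6 comparisons ran from -0.29 to 0.13 as deposited and from -0.02 to 0.07 after quantile normalization. The share of called genes that were higher ran from 23.4% to 63.9% as deposited and from 48.6% to 54.3% after quantile normalization. With a difference of at least 1.5, between 818 and 2628 genes were called, against 1785 to 3942. No paired analysis was possible because each group has 1 array, and for the same reason no array could be left out. Signal over background limits Gsdma, Gsdmc and Gsdme, which cannot be ranked between arrays.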
